A study of Mus musculus with 8 samples.

Results

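The translation initiation factor genes were described across kidney RNA-seq libraries of mice after I/R (ischemia-reperfusion), a loss and return of blood flow to the organ. Members were the genes whose symbol starts with Eif followed by a number and whose counts summed to 80 or more over the 8 libraries. Of 25239 genes in the table, 57 carried such a symbol and 52 were members. The other 5 (Eif3j1, Eif3j2, Eif4e1b, Eif4a3l1 and Eif2c5) had 0 counts in every library, and the member nearest to the threshold, Eif5a2, had 1384 in total. Eif3j1 and Eif3j2 are near-identical copies, and reads that match both may have been left out of the counts, which was not tested. Their 0 therefore does not show that the eIF3j subunit was not expressed. All 52 members passed the filter on low counts and were tested.

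The 4 knockout libraries came from mice with a myeloid FoxO1 knockout, which carried floxed FoxO1 alleles and Lyz2-CreERT2, a Cre recombinase driven by the lysozyme gene Lyz2 of myeloid cells and switched on by tamoxifen. The 4 control libraries are labelled wild type, and whether those mice carried Cre or floxed alleles is not given in the sources used here. For all 8 samples the labels list an age of 8 to 10 weeks, tamoxifen at 75 mg per kg on 5 days, removal of the right kidney and a 35-minute clamp of the left renal vessels. The time of collection is not given in the sources used here, all libraries are from injured kidney, and no label says that the libraries of a group came from separate animals, so p-values reflect only the variation from library to library, which may be technical.

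Translation of most mRNAs begins when the small ribosomal subunit, carrying the initiator tRNA, is brought to the cap at the 5' end of the mRNA and scans to the start codon. eIF2 carries the initiator tRNA and eIF2B reloads eIF2 with GTP, while kinases that phosphorylate the alpha subunit of eIF2 under stress lower the supply of active eIF2. eIF3 is a large scaffold on the small subunit. eIF4E binds the cap, eIF4G links it to eIF3, and the helicase eIF4A unwinds the leader of the mRNA. The eIF4E-binding proteins hold eIF4E away from eIF4G until the kinase complex mTORC1 phosphorylates them. In many tissues ischemia and reperfusion raise the phosphorylation of eIF2 alpha and lower protein synthesis.

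Library totals ran from 29044405 to 34738914 counts in knockouts and from 32627652 to 35530421 in controls. Markers of the labelled tissue were present: all 9 kidney tubule genes listed were detected, 4 of them were called higher in the knockout, and their sum was 11748 to 13484 CPM (counts scaled to a common library size with trimmed mean of M values, TMM, factors) in knockouts and 4471 to 7724 CPM in controls. Foxo1, the targeted gene, was at 41.4, 41.0, 42.9 and 39.3 CPM in knockouts 1 to 4, against 34.5, 33.4, 33.0 and 33.9 CPM in controls 1 to 4 (log2 fold change 0.29, SE 0.09, by edgeR adjusted p = 0.0647). Kidney holds many cells that are not myeloid, so this level does not check the knockout. Lyz2, whose promoter drives the Cre, was at 46.9, 26.3, 0.367 and 25.4 CPM in knockouts 1 to 4, against 2.28, 50.4, 32.1 and 27.3 CPM in controls 1 to 4. Knockout 3 and control 1 thus stood apart from the other 6 libraries in Lyz2. Other macrophage and monocyte genes were not near 0 in them. Knockout 3 had Csf1r at 46.3 CPM (51.3 to 65.2 in the other knockouts), and control 1 had Itgam at 41.4 CPM (9.72 to 12.8 in the other controls). The cause of the low Lyz2 in this pair was not tested. Counts of called genes are given with and without this pair for the members, for all genes and for the lists of other pathway genes. Calls in the marker lists, counts at an unadjusted p and counts of non-overlapping groups are given with the pair only.

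Of the 52 members, 8 were lower in the knockout and 0 were higher at an edgeR adjusted p under 0.05. Over all 15000 genes tested, 6.28% were called lower and 6.45% higher, so the 15.4% of members called lower was above the share of all genes and the 0 called higher below it. At an unadjusted p under 0.05 the members had 16 lower (30.8%) and 0 higher, against 14.6% lower and 14.5% higher over all genes, and DESeq2 and limma-voom also called 0 higher. The 8 were Eif6, Eif4ebp1, Eif3d, Eif1a, Eif3g, Eif2s1, Eif4a1 and Eif5b. The log2 fold change (knockout over control) was below 0 for 46 of 52 members, or 88.5%, against 51.2% of all genes, with a median of -0.22 for members and -0.01 for all genes. The members' log2 fold changes lay between -1.31 and 0.26, and 44 did not pass the test. In 13 members (25.0%) every knockout library lay below every control library, and in 0 every knockout library lay above; over all genes the shares were 10.6% and 11.1%, or 21.7% in either direction. These 13 were all genes called lower except Eif5b, and with them Eif1ax, Eif3b, Eif3m, Eif4b, Eif4e and Eif4h, which did not pass the test.

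In 4 of the 8 fits that left out a library, the members called lower fell to 5 or fewer, and the share of all genes called lower was smaller too. There were 4 members (7.69%) without control 3, against 3.54% of all genes, and 4 (7.69%) without knockout 2, against 3.41%. There were 5 (9.62%) without knockout 3, against 3.71%, and 3 (5.77%) without knockout 4, against 2.97%. Without knockout 3 and control 1, the pair low in Lyz2, there were also 3 (5.77%), against 3.30% of all genes; this setting was chosen after seeing the data. Eif6, Eif4ebp1 and Eif3d passed the threshold in each of 17 alternative fits, and the other 5 did not. Summed levels of several marker lists did not overlap between the same groups. A sum is set mainly by the genes with the highest levels, such as Spp1 among the injured tubule genes (mean 4751 CPM in knockouts and 16072 CPM in controls). Of 9 injured tubule genes 8 were called lower (summed level 5228 to 6082 CPM in knockouts and 13783 to 27086 CPM in controls), of 8 immediate early genes 7 were called lower (199 to 225 CPM and 394 to 605 CPM), and of 6 neutrophil genes all 6 were called lower (5.81 to 15.7 CPM and 27.3 to 171 CPM). Control 1 was the highest library for all 6 neutrophil genes, with Csf3r at 53.5 CPM there and 6.94 to 12.0 CPM in the other controls. Of 6 cell cycle genes 2 were called lower, Pcna and Mcm2, which make up most of the sum (127 to 148 CPM and 165 to 207 CPM). Mki67, Top2a and Cdk1 overlapped between the groups. Of 5 podocyte genes 4 were called higher (511 to 559.9 CPM in knockouts and 336 to 431 CPM in controls). The sums of 3 other lists overlapped between the groups. Of 10 macrophage and monocyte genes, Lyz2 among them, 2 were called lower, Itgam and Ccr2 (186 to 314 CPM in knockouts and 183 to 301 CPM in controls). Control 1 was the highest library for both, with Ccr2 at 28.9 CPM there and 3.54 to 6.01 CPM in the other controls. Of 5 endothelial genes 2 were called higher (259.8 to 321 CPM and 124 to 262 CPM). The 8 lymphocyte genes summed to 6.37 to 11.4 CPM in knockouts and 2.30 to 11.3 CPM in controls. None of the genes in these lists was at 0 in all libraries, and their part in the results for initiation factors was not tested. In RNA from many cells together, fewer cells of a type and less RNA per cell cannot be told apart. The protocol in the labels includes collagenase digestion, and its part in these levels was not tested.

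**Figure D1:**
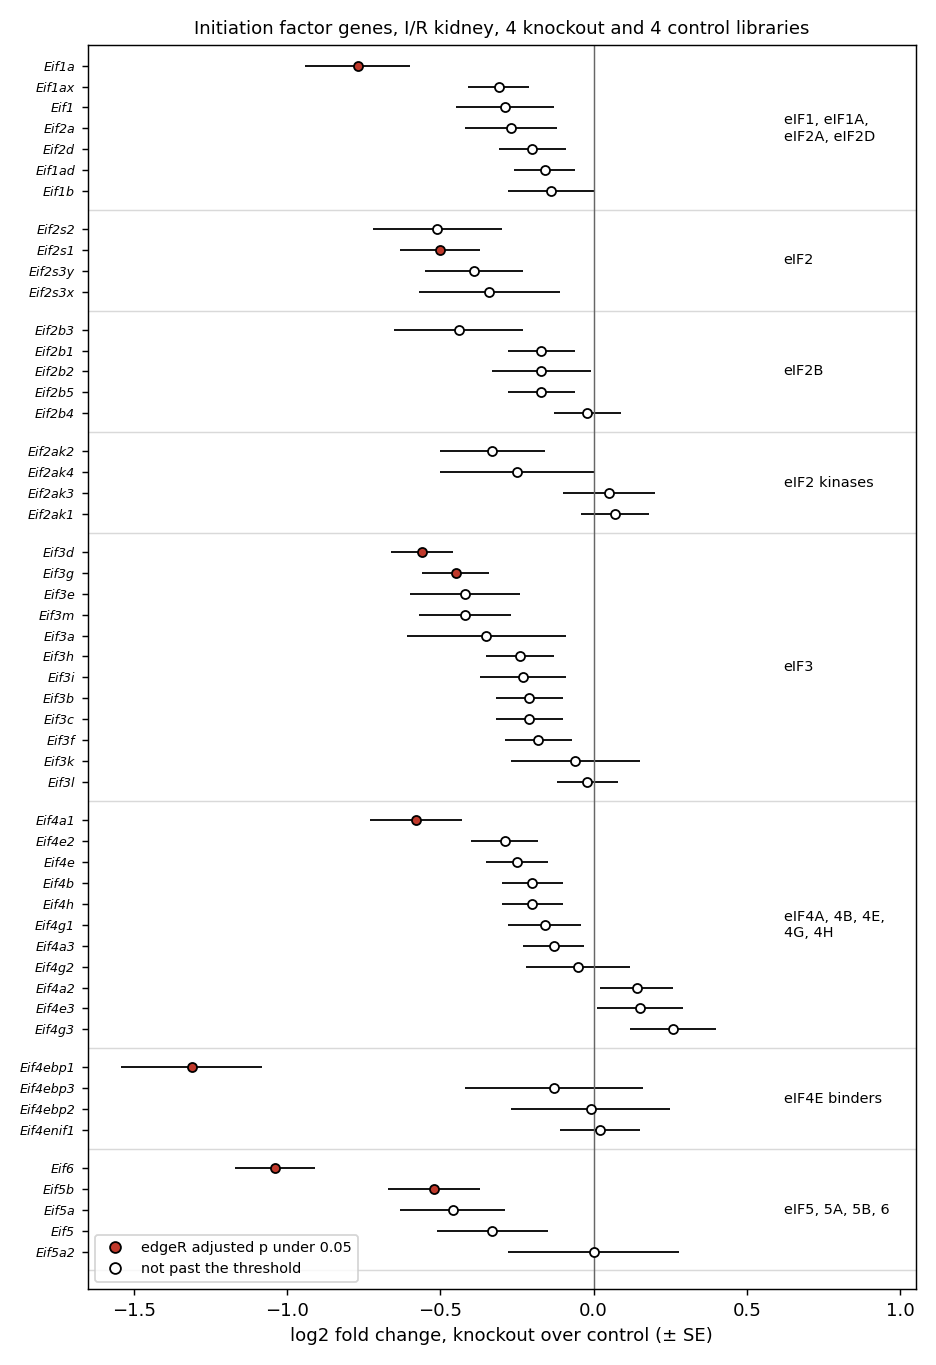
Log2 fold change, knockout over control, with its standard error (x axis) for each of the 52 initiation factor genes (rows, grouped by role), filled where the edgeR adjusted p was under 0.05. The 8 filled points are all left of 0, and 46 of the 52 points are below 0.

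Eif6 had the smallest p among the members. Its product binds the large ribosomal subunit, keeps it from joining the small subunit too early, and takes part in the maturation of the large subunit. Eif6 was at 215, 209, 201 and 164 CPM in knockouts 1 to 4, against 454, 352, 409 and 414 CPM in controls 1 to 4. Every knockout library was under every control library, by a wide margin. The means were 197 ± 23.1 CPM in knockouts and 407 ± 42.1 CPM in controls (SD, n = 4 each), a 2.06-fold lower level (log2 fold change -1.04, SE 0.13, by edgeR adjusted p = 0.00174). An antisense gene, Gm16098, overlaps Eif6 in the reference annotation, and the library kit does not mark strand, so reads of the pair cannot be told apart.

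The other late-acting factors were eIF5, eIF5B and the eIF5A proteins. Eif5b encodes the GTPase that joins the ribosomal subunits. It was at 54.0, 57.0, 78.9 and 70.1 CPM in knockouts 1 to 4, against 107, 76.1, 98.3 and 92.7 CPM in controls 1 to 4. Knockout 3 lay above control 2, so the groups overlapped. The log2 fold change was -0.52 (SE 0.15, by edgeR adjusted p = 0.0496), and the call was lost without control 1, control 3, control 4, knockout 1, knockout 2 or knockout 4, with a highest adjusted p of 0.138. Rev1, with 162 to 365 counts per library, overlaps Eif5b on the other strand. Eif5a encodes the abundant factor that carries the modified amino acid hypusine and helps ribosomes past difficult stretches. Eif5a was at 1158, 901, 809.7 and 768 CPM in knockouts 1 to 4, against 1048, 1413, 1176 and 1351 CPM in controls 1 to 4. Knockout 1 lay among the controls and the other 3 knockouts below all of them. It had a log2 change of -0.46 (SE 0.17, by edgeR adjusted p = 0.101), and without knockout 1 the adjusted p was 0.0370. Per length, Eif5a had the highest level of all members, 451 ± 86.7 CPM per kilobase in knockouts and 618 ± 82.5 in controls, and its relative Eif5a2 the lowest, 1.02 ± 0.273 and 1.02 ± 0.330 (SD, n = 4 each). Eif5a2 had 109, 177, 250 and 149 counts in knockouts 1 to 4, against 249, 112, 215 and 123 counts in controls 1 to 4, so its groups overlapped. Eif5, the GTPase activator of eIF2, had a log2 fold change of -0.33 (SE 0.18, by edgeR adjusted p = 0.239).

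The eIF4E-binding proteins are short proteins that repress translation driven by the cap. Eif4ebp1 had the lowest log2 fold change of all members. It was at 60.5, 46.6, 43.4 and 49.0 CPM in knockouts 1 to 4, against 191, 96.3, 114 and 94.4 CPM in controls 1 to 4. The groups did not overlap, and control 1 stood well above the other controls. The means were 49.9 ± 7.41 CPM in knockouts and 124 ± 45.5 CPM in controls (SD, n = 4 each), a 2.48-fold lower level (log2 fold change -1.31, SE 0.23, by edgeR adjusted p = 0.00646). Without control 1 the log2 fold change was -1.03, with an adjusted p of 0.00187 by edgeR.

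Eif4ebp2, the form that prevails in brain, was at 40.4, 82.4, 84.0 and 78.9 CPM in knockouts 1 to 4, against 96.6, 48.1, 79.2 and 64.5 CPM in controls 1 to 4. Knockout 1 was the lowest of the 8 libraries and the groups overlapped widely. Its log2 fold change was -0.01 (SE 0.26, by edgeR adjusted p = 0.979). Eif4ebp3 ranged from 12.5 to 21.4 CPM in knockouts and from 9.92 to 26.7 CPM in controls (log2 fold change -0.13, SE 0.29, not called). Per length, Eif4ebp1 averaged 50.9 ± 7.55 CPM per kilobase in knockouts and 126 ± 46.4 in controls, and Eif4ebp2 averaged 40.0 ± 11.6 and 40.4 ± 11.6 (SD, n = 4 each). Between these related genes, therefore, the level of Eif4ebp1 per length was above that of Eif4ebp2 by more than the spread in controls and within the spread in knockouts. Eif4enif1, which encodes the transporter that carries eIF4E into the nucleus, had a log2 fold change of 0.02 (SE 0.13, by edgeR adjusted p = 0.936).

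Among the cap-binding and unwinding factors, 1 of 11 passed the test. Eif4a1, the helicase gene of the pair with the higher level here, was at 386, 455, 381 and 356 CPM in knockouts 1 to 4, against 728, 496, 625 and 513 CPM in controls 1 to 4. No knockout library reached the lowest control. The means were 395 ± 42.3 CPM in knockouts and 591 ± 108 CPM in controls (SD, n = 4 each). On the log2 scale the difference was -0.58 (SE 0.15, by edgeR adjusted p = 0.0342). The call was lost without control 1, without control 3 and without any 1 of the knockouts (adjusted p up to 0.102). In the reference annotation 3 small nucleolar RNA genes lie within Eif4a1 on the same strand. Eif4a2, which encodes a closely related helicase, was at 256, 218, 231 and 250.4 CPM in knockouts 1 to 4, against 221, 191, 251 and 204 CPM in controls 1 to 4. Its groups overlapped, with a log2 fold change of 0.14 (SE 0.12, by edgeR adjusted p = 0.472). Eif4a3, the helicase of the exon junction complex, had -0.13 (SE 0.10, by edgeR adjusted p = 0.399).

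The promoters of the pair are shown because these related genes differed in the comparison. Whether their sequence bears on that difference was not tested. The stretches are the 250 bases before the RefSeq start of each gene, on the gene's strand, in build GRCm38.p6 (Eif4a1 chr11:69672424-69672673, minus strand; Eif4a2 chr16:23107218-23107467, plus strand). The capitals mark CACGTG, the E-box bound by MYC and related factors, which lies from 189 to 184 bases before the start of Eif4a1 and was not found in the stretch of Eif4a2.
Eif4a1: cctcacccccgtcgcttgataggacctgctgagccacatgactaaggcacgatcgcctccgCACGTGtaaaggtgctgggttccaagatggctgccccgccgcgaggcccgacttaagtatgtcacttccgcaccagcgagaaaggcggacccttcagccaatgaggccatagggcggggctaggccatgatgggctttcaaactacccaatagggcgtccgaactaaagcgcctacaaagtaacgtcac
Eif4a2: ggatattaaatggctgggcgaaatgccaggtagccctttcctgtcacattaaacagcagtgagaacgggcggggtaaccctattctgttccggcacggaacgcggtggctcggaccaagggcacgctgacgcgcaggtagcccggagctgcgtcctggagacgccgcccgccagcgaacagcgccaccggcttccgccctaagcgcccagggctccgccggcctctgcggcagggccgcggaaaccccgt

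Eif4e, the cap-binding protein gene, was at 103, 103, 107 and 95.9 CPM in knockouts 1 to 4, against 139, 113, 118 and 117 CPM in controls 1 to 4. The groups did not overlap, but the log2 fold change of -0.25 (SE 0.10) did not pass (by edgeR adjusted p = 0.141). Eif4e2, which encodes a cap-binding protein that represses translation, had -0.29 (SE 0.11, by edgeR adjusted p = 0.112), and its adjusted p without knockout 1 was 0.0310. Eif4g1, the main scaffold gene, was at 394, 469, 482 and 471 CPM in knockouts 1 to 4, against 499, 471, 527 and 541 CPM in controls 1 to 4. Knockout 3 lay above control 2 and knockout 1 apart below the rest, and the log2 fold change was -0.16 (SE 0.12, by edgeR adjusted p = 0.385). Eif4g2, whose product lacks the eIF4E-binding part, had -0.05 (SE 0.17) and Eif4g3, a second full scaffold gene, 0.26 (SE 0.14, by edgeR adjusted p = 0.265), the highest of the members. The helicase cofactor genes Eif4b and Eif4h both had -0.20 (SE 0.10 each), with separated groups and adjusted p values by edgeR of 0.215 and 0.237. The tissue-restricted cap-binding gene Eif4e3 had 0.15 (SE 0.14, by edgeR adjusted p = 0.547).

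**Figure D2:**
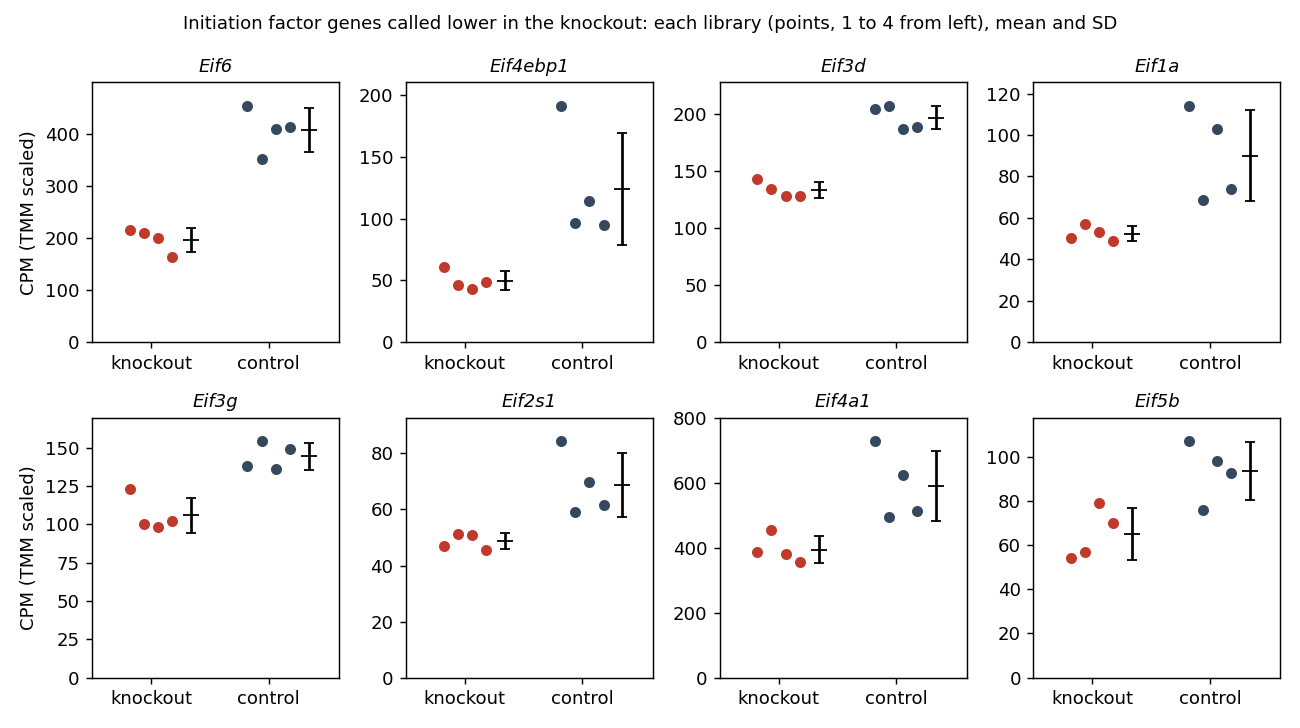
TMM-scaled CPM (y axis, from 0) of the 8 initiation factor genes called lower, with each knockout library and each control library as a point and the group mean with its SD beside them. In 7 of the 8 genes every knockout point lies under every control point; in Eif5b knockout 3 at 78.9 CPM lies above control 2 at 76.1 CPM.

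All 12 eIF3 subunit genes had a log2 fold change below 0, and 2 of them, Eif3d and Eif3g, passed the test. Eif3d, whose product can itself bind the cap of some mRNAs, was at 143, 134, 128 and 128 CPM in knockouts 1 to 4, against 204, 207, 187 and 189 CPM in controls 1 to 4. Both groups were tight and lay far apart. The means were 133 ± 7.16 CPM in knockouts and 197 ± 10.3 CPM in controls (SD, n = 4 each), a 1.48-fold lower level (log2 fold change -0.56, SE 0.10, by edgeR adjusted p = 0.00689). An antisense gene, Gm17638, overlaps Eif3d in the reference annotation. Eif3g, an RNA-binding subunit, was at 123, 100.2, 98.4 and 102 CPM in knockouts 1 to 4, against 138, 154, 136 and 149 CPM in controls 1 to 4. The groups did not overlap, with knockout 1 nearest to the controls. Eif3g had a log2 fold change of -0.45 (SE 0.11, by edgeR adjusted p = 0.0277), and the call was lost without control 2, control 3, control 4, knockout 2, knockout 3 or knockout 4, with a highest adjusted p of 0.0901.

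The promoter of Eif3d is shown for the firmest difference among the eIF3 members, and whether its sequence bears on that was not tested. It is the 250 bases before the RefSeq start, build GRCm38.p6, chr15:77970825-77971074, minus strand, and the capitals mark CCGGAAGT, a site type of ETS factors, found on the opposite strand from 71 to 64 bases before the start.
Eif3d: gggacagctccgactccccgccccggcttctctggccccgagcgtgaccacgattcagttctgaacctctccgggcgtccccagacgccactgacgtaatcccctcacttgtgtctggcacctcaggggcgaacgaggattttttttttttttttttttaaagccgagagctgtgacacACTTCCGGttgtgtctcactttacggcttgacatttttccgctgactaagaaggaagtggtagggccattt

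Of the other subunits, Eif3b and Eif3m also had separated groups without passing the test. Eif3b, a core subunit, had a log2 fold change of -0.21 (SE 0.11, by edgeR adjusted p = 0.221) and Eif3m -0.42 (SE 0.15, by edgeR adjusted p = 0.0912). Eif3m was at 50.8, 56.0, 54.4 and 53.3 CPM in knockouts 1 to 4, against 90.6, 61.2, 77.5 and 57.1 CPM in controls 1 to 4. Eif3e had -0.42 (SE 0.18, by edgeR adjusted p = 0.154) and Eif3a, the largest subunit, -0.35 (SE 0.26, by edgeR adjusted p = 0.397). Eif3c, Eif3f, Eif3h and Eif3i lay between -0.24 (Eif3h) and -0.18 (Eif3f). Eif3k and Eif3l, which bind each other at the edge of the complex, were nearest to 0, at -0.06 (SE 0.21) and -0.02 (SE 0.10). Per length, subunit levels in knockouts ran from 25.7 CPM per kilobase for Eif3a to 174 for Eif3k, against 32.8 for Eif3a to 200.2 for Eif3h in controls. At the top of that order, Eif3k (174 ± 47.3 in knockouts and 181 ± 35.5 in controls) and Eif3h (169 ± 15.1 and 200.2 ± 16.2; SD, n = 4 each) differed by less than their spread. These levels rest on the deposited gene lengths.

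**Figure D3:**
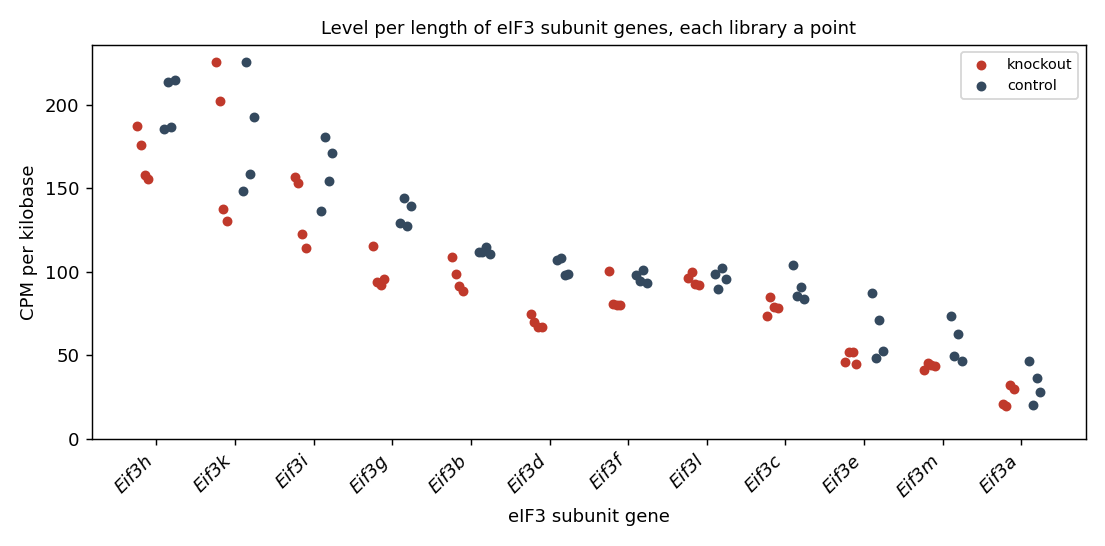
CPM per kilobase of deposited gene length (y axis, from 0) for the 12 eIF3 subunit genes, each knockout and control library a point. The groups stand apart for Eif3d and Eif3g among others and overlap for Eif3k and Eif3l.

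The factors that guide scanning to the start codon include eIF1 and eIF1A. Eif1a was at 50.5, 57.2, 53.1 and 49.0 CPM in knockouts 1 to 4, against 114, 68.8, 103 and 73.9 CPM in controls 1 to 4. The knockouts lay close together and below all controls, which spread more widely. The log2 fold change was -0.77 (SE 0.17, by edgeR adjusted p = 0.0153), a 1.71-fold lower level, and the call was lost without knockout 4 (adjusted p = 0.0548). Eif1ax, the X-linked copy, was at 84.2, 83.0, 79.2 and 77.5 CPM in knockouts 1 to 4, against 113, 88.9, 100.2 and 98.4 CPM in controls 1 to 4. Its groups did not overlap either, and the log2 fold change of -0.31 (SE 0.10) did not pass (by edgeR adjusted p = 0.0809). Eif1a and Eif1ax encode nearly the same protein and may share reads, so how the difference divides between them is uncertain. Eif1, the gatekeeper of start codon choice, is given because knockout 1 stood apart in it. It was at 437, 291, 291 and 277 CPM in knockouts 1 to 4, against 387, 438, 350.5 and 410.5 CPM in controls 1 to 4. Knockout 1 lay at the top of the controls and the other knockouts below them (log2 fold change -0.29, SE 0.16, by edgeR adjusted p = 0.271), and without knockout 1 the adjusted p was 0.0367. Its relative Eif1b, and Eif1ad, Eif2a and Eif2d, which are related by domain or deliver tRNA by other routes, lay between -0.27 and -0.14 and did not pass.

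All 4 genes for eIF2 subunits had a log2 fold change below 0 and 1 passed. Eif2s1 encodes the alpha subunit, the target of the stress kinases. It was at 47.1, 51.2, 50.9 and 45.6 CPM in knockouts 1 to 4, against 84.3, 59.1, 69.9 and 61.7 CPM in controls 1 to 4. The groups did not overlap. The log2 fold change was -0.50 (SE 0.13, by edgeR adjusted p = 0.0310), a 1.41-fold lower level, and the call was lost without control 3 or any 1 of the knockouts (adjusted p up to 0.0945). The beta subunit gene Eif2s2 had the same size of difference with a wider spread (log2 fold change -0.51, SE 0.21, by edgeR adjusted p = 0.141).

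The gamma subunit is encoded on both sex chromosomes in the mouse. Eif2s3x was at 43.9, 60.7, 66.7 and 57.7 CPM in knockouts 1 to 4, against 100.2, 47.4, 82.8 and 58.6 CPM in controls 1 to 4 (log2 fold change -0.34, SE 0.23, by edgeR adjusted p = 0.359). Eif2s3y was at 17.2, 24.7, 22.4 and 22.4 CPM in knockouts 1 to 4, against 26.4, 23.9, 34.8 and 28.8 CPM in controls 1 to 4 (log2 fold change -0.39, SE 0.16, by edgeR adjusted p = 0.125). The Y-linked copy was thus present in all 8 libraries, where Xist, the RNA of the inactive X, had 0 to 8 counts in knockouts and 0 to 3 in controls. Reads may be shared between both copies.

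The 5 eIF2B genes gave 0 calls in either direction, with 0 at an unadjusted p under 0.05, and log2 fold changes from -0.44 (Eif2b3, SE 0.21) to -0.02 (Eif2b4, SE 0.11). The 4 eIF2 kinase genes also gave 0 calls and 0 at an unadjusted p under 0.05. DESeq2 and limma-voom called 0 in both groups of genes. Eif2ak1, the heme-regulated kinase HRI, was at 87.7, 89.3, 92.4 and 85.4 CPM in knockouts 1 to 4, against 70.8, 83.9, 90.9 and 91.9 CPM in controls 1 to 4. Eif2ak2, which encodes the double-stranded RNA sensor PKR, was at 14.0, 13.0, 15.1 and 15.3 CPM in knockouts 1 to 4, against 21.2, 16.8, 21.1 and 12.9 CPM in controls 1 to 4. Both pairs of groups overlapped, with log2 fold changes of 0.07 (SE 0.11) for Eif2ak1 and -0.33 (SE 0.17) for Eif2ak2. Eif2ak3, which encodes the endoplasmic reticulum kinase PERK, was at 31.7, 37.7, 48.0 and 46.1 CPM in knockouts 1 to 4, against 43.9, 34.9, 42.2 and 37.0 CPM in controls 1 to 4. Eif2ak4, which encodes the amino acid sensor GCN2, had 268, 470, 508 and 509 counts in knockouts 1 to 4, against 710, 319, 741 and 369 counts in controls 1 to 4. Their groups overlapped too (log2 fold changes 0.05, SE 0.15, and -0.25, SE 0.25). Per length, Eif2ak1 had the highest level of the 4 kinase genes, 34.5 ± 1.13 CPM per kilobase in knockouts and 32.8 ± 3.78 in controls, and Eif2ak3 followed at 8.45 ± 1.57 and 8.17 ± 0.879 (SD, n = 4 each).

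Ratios between related members within a library do not depend on the scaling between libraries. They are given for 10 pairs as log2 differences and without a test. The Eif4a2 to Eif4a1 ratio was -0.59, -1.06, -0.72 and -0.51 in knockouts 1 to 4, against -1.72, -1.38, -1.32 and -1.33 in controls 1 to 4. Every knockout library had the higher ratio, by 0.72 on average, so Eif4a2 made up more of the pair's counts there. The Eif4g3 to Eif4g1 ratio averaged -1.83 ± 0.10 in knockouts and -2.25 ± 0.19 in controls (SD, n = 4 each), again with no overlap. The Eif4e3 to Eif4e ratio averaged -2.88 ± 0.23 and -3.26 ± 0.06, and there the lowest knockout (-3.19) all but touched the highest control (-3.20). The Eif4ebp1 to Eif4ebp2 ratio was 0.58, -0.82, -0.95 and -0.69 in knockouts 1 to 4, against 0.98, 1.00, 0.53 and 0.55 in controls 1 to 4. Knockout 1 lay among the controls, and the other 3 knockouts lay far below. The other 6 ratios overlapped between the groups.

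**Figure D4:**
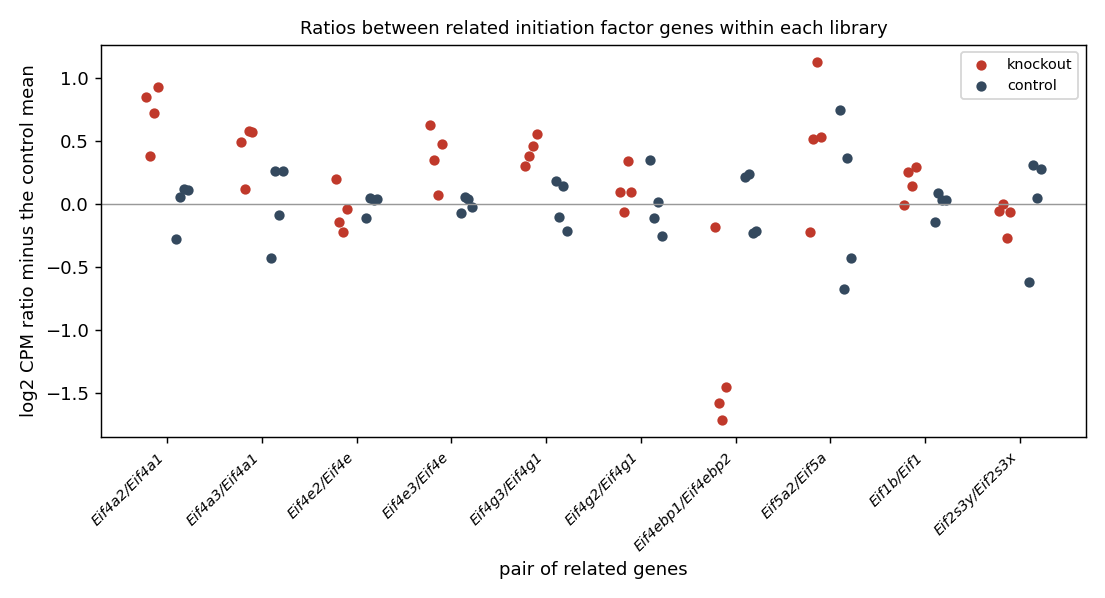
Log2 CPM ratio of 10 pairs of related initiation factor genes in each knockout and control library (points), minus the mean of the control libraries (y axis). The groups do not overlap for Eif4a2/Eif4a1, Eif4e3/Eif4e and Eif4g3/Eif4g1, and 3 of the 4 knockouts stand low for Eif4ebp1/Eif4ebp2.

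The members also varied within each group, and in a shared way. Eif3a, chosen after its values were seen as 1 of the long members, was at 107, 102, 168 and 156 CPM in knockouts 1 to 4, against 242, 106, 189 and 144 CPM in controls 1 to 4. Over all genes tested, the deviation of a library from the mean log2 level changed with gene length by -0.12, -0.03, 0.11 and 0.10 per doubling of length in knockouts 1 to 4, and by 0.10, -0.12, 0.03 and -0.07 in controls 1 to 4. Libraries with raised long genes and libraries with lowered ones were thus found in both groups. With GC content (the share of G and C bases), the change per 10 percentage points was 0.11, 0.11, -0.07 and 0.03 in knockouts 1 to 4. In controls 1 to 4 it was -0.23, 0.10, -0.11 and 0.07, with control 1 the steepest. Over the 52 members of a library, the deviation from the group mean had a Pearson correlation with log2 length of -0.55, -0.30, 0.61 and 0.52 in knockouts 1 to 4 and of 0.38, -0.49, 0.47 and -0.32 in controls 1 to 4; these genes share a library, and the values are descriptions. The members' log2 fold change between the groups had a Pearson correlation with log2 length of 0.25, against 0.04 over all genes tested. With the length trend of each library removed, 8 members were called lower, the same 8 genes. The members with a log2 fold change below 0 then numbered 42, against 46 before. With length and GC trends removed, a setting chosen after seeing the data, 9 were called lower, the same 8 and Eif5a. The members' share of all counts was 0.757%, 0.756%, 0.778% and 0.768% in knockouts 1 to 4, against 1.06%, 0.840%, 0.934% and 0.858% in controls 1 to 4.

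**Figure D5:**
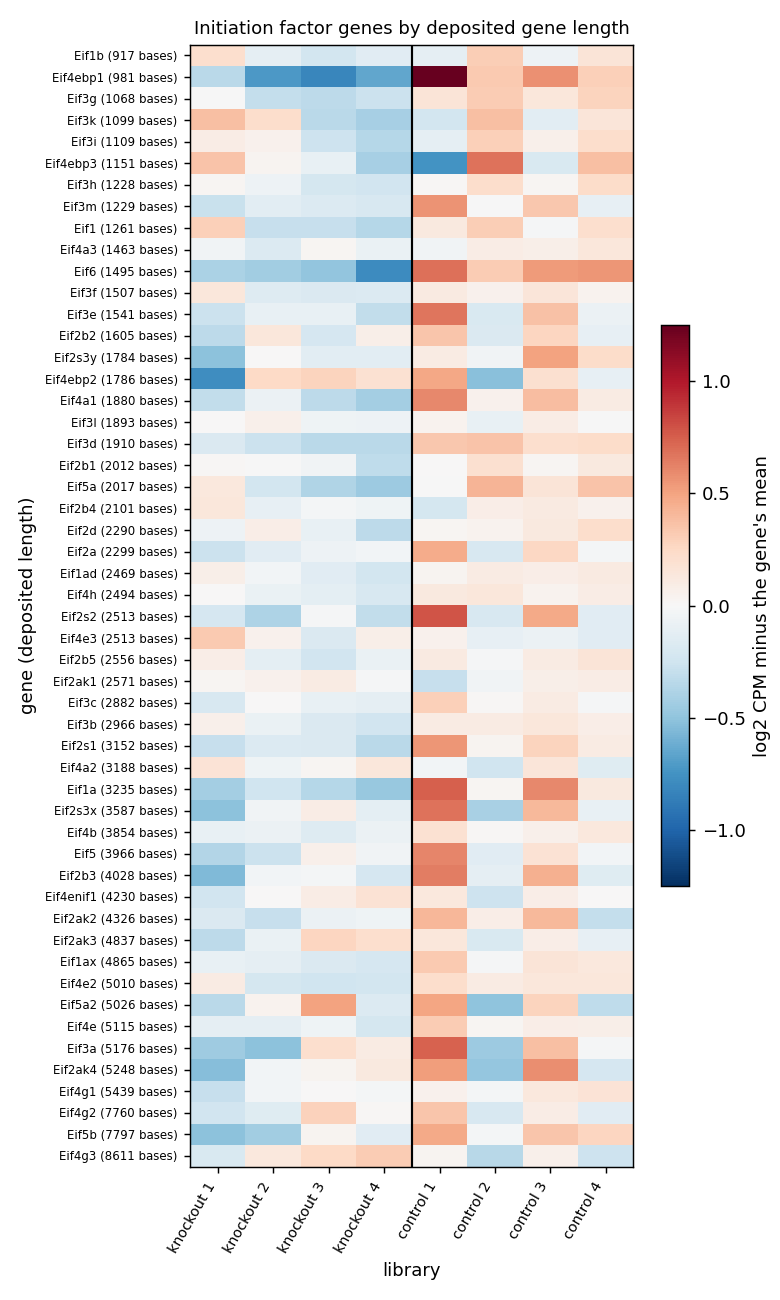
Log2 CPM minus the gene's mean over the 8 libraries (colour) for the 52 members (rows, ordered by deposited gene length in bases) in knockouts 1 to 4 and controls 1 to 4 (columns). Eif6, Eif4ebp1 and Eif3d are low in every knockout column, while long genes such as Eif3a follow single libraries in both groups.

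Other genes of the pathway came from 3 lists, to be read against the same 6.28% lower and 6.45% higher over all genes. Of 28 partners and regulators of initiation, 3 were lower (Pabpc1, Pabpc4 and Bzw1), 1 was higher (Paip2b) and 24 did not pass, with a median log2 fold change of -0.15. Pabpc1, the main poly(A)-binding protein gene, was at 278, 303, 333 and 339.7 CPM in knockouts 1 to 4, against 822, 478, 638 and 550.3 CPM in controls 1 to 4. The groups lay well apart, a 1.98-fold lower level in knockouts (log2 fold change -0.99, SE 0.17, by edgeR adjusted p = 0.00681). Pabpc4 had -0.58 (SE 0.11, by edgeR adjusted p = 0.00842), and Bzw1, an eIF5-mimic gene, -0.50 (SE 0.14, by edgeR adjusted p = 0.0398). Paip2b, an inhibitor of poly(A)-binding protein, had 0.47 (SE 0.12, by edgeR adjusted p = 0.0323). Paip2b kept its call only without control 1 when single libraries were dropped (highest adjusted p 0.0795), and Bzw1 only without control 2 or control 4 (up to 0.112). Without knockout 3 and control 1, Pabpc1 and Pabpc4 passed the threshold and the others did not.

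Of 25 genes of the mTORC1 axis, 5 were higher (Mtor, Rragd, Sesn1, Castor2 and Ddit4l), 0 were lower and 20 did not pass, with a median log2 fold change of 0.00; 3 (12.0%) were lower at an unadjusted p under 0.05, against 14.6% of all genes, and DESeq2 and limma-voom called 2 lower each. Mtor, the kinase itself, was at 116, 154, 155 and 149 CPM in knockouts 1 to 4, against 113, 88.5, 114 and 101 CPM in controls 1 to 4. Knockout 1 stood just above the highest control and the others higher (log2 fold change 0.46, SE 0.13, by edgeR adjusted p = 0.0466). Rragd, a Rag GTPase that brings mTORC1 to the lysosome, had 0.70 (SE 0.16, by edgeR adjusted p = 0.0218). Sesn1, Castor2 and Ddit4l, which are restraints on mTORC1 or relatives of such, had 0.67 (SE 0.18), 0.57 (SE 0.14) and 0.56 (SE 0.16). The count of 5 was 3 without control 1, control 2 or knockout 1, 2 without knockout 3, 1 without control 3 or control 4, and 0 without knockout 2 or knockout 4, while the share of all genes called higher in these 8 fits ran from 3.01% to 6.59%. It was 1, Rragd, without knockout 3 and control 1, against 3.65% of all genes. Of 11 elongation and release factor genes tested, all had a log2 fold change below 0 (median -0.35), and 1, Eef1g, was called lower (log2 fold change -0.50, SE 0.13, by edgeR adjusted p = 0.0312), while 0 were higher, with 0 higher at an unadjusted p under 0.05 and 0 by DESeq2 and limma-voom. The count of 1 lower was 4 by DESeq2 and 5 by limma-voom, and it was 3 without knockout 1 and 0 without control 3, control 4, knockout 2, knockout 3 or knockout 4, and 0 without knockout 3 and control 1.

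RefSeq promoter windows of build GRCm38.p6, from 250 bases before to 50 after a gene's start, were at hand for 42 of the 52 members, 5 of them among the genes called lower. Both strands were searched for 4 motifs. The reference was every gene with a RefSeq window, tested here or not, while all members passed the filter on low counts. The shares therefore compare unlike sets of genes. A gene counted when any of its windows matched, and Eif5a had 6 windows. CACGTG was found in windows of 10 members (23.8%), against 8.09% of all 27025 genes and 7.15% of all 32851 windows. The 10 were Eif1b, Eif3a, Eif3f, Eif3k, Eif4a1, Eif4e, Eif4g1, Eif4h, Eif5a and Eif5a2, of which Eif4a1 alone was called lower. CCGGAAGT was found in 8 members (19.0%), against 4.31% of all genes, and again 1 of them, Eif3d, was called lower. GTAAACA, the forkhead core bound by FoxO factors, was found in 1 member, Eif2s3y (2.4%, against 4.05% of all genes). TGATGNAA, the core of elements bound by ATF4, was found in 1 member, Eif2s3x (2.4%, against 4.51%). No motif contains another, and a match is a description of the sequence and not a site in use.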

How the data were processed

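Kidney RNA of 8 mouse libraries, 4 knockout and 4 control, was measured by RNA-seq. The authors deposited 1 table of whole-number counts per gene, not normalized, with gene lengths. Per the submitters' processing notes, the tools included Salmon 1.10.2, HISAT2 2.2.1 and Trim Galore 0.6.2 with FastQC, and the build was mm39. No source used here names the counter or annotation. The protocol in the labels includes collagenase digestion and 1.3 µg of total RNA per library. Genes were taken by symbol, and the identifier column was not used. In each library 68.7% to 70.9% of values from 1 to 20 were even, so a count may stand for less than 1 fragment, and depth covers counting error only.

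Groups were compared in R 4.3.3 with edgeR 4.0.16 (filterByExpr with minimum count 10, TMM, glmQLFit and glmQLFTest, all 8 libraries, no covariate), with Benjamini-Hochberg adjustment over the 15000 genes tested and a threshold of 0.05. Standard errors were derived from the F statistic. Log2 CPM used a prior count of 2. DESeq2 1.42.0, limma 3.58.1 (voom with quality weights), other size factors, no filter, length offsets, a replicate block and leaving out libraries were the alternatives. GC content was at hand for 98.4% of the genes tested. The fits were tested on simulated data. Any member could be named; values in every library are given for the called members, the 3 with the smallest p not called and a fixed set of others, with Eif1 and Eif3a added after their values were seen. The members and lists were chosen with earlier results of these data known. Promoters are from RefSeq, build GRCm38.p6; coordinates of that build were not joined to the counts.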

Additional observations from a re-analysis of the deposited data

Results flagged for a closer look

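In 6 of 106 groups of 4 libraries (52 members and Foxo1, 2 groups each), 1 library stood apart by Dixon's criterion; chance flags about 1 in 20 groups. All 6 were knockout 1. It was at 437 CPM for Eif1 (other knockouts 277 to 291), 151 CPM for Eif3f (120.4 to 122), 123 CPM for Eif3g (98.4 to 102) and 106 CPM for Eif4e2 (82.9 to 84.6). It was at 394 CPM for Eif4g1 (469 to 482) and 40.4 CPM for Eif4ebp2 (78.9 to 84.0). Without knockout 1, 8 members were called lower, 5 of them among the 8 of the comparison of all libraries; Eif2s1, Eif4a1 and Eif5b lost their calls, and Eif1, Eif4e2 and Eif5a gained one.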

How the results depend on the processing

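No alternative among the 17 called a member higher, and the median log2 fold change of the members stayed between -0.25 and -0.19. Members called lower numbered 3 to 8 when 1 library was left out, 3 with the replicate block, 3 without control 1 and knockout 3 together, and 12 with limma-voom. Over all genes, 907 to 1984 were called when 1 library was left out (1909 with all), 3109 by DESeq2, 865 with the replicate block and 1045 without control 1 and knockout 3. Numbers in the sample titles do not state a pairing. Libraries with the same title number had correlations of -0.20, 0.04, 0.15 and -0.16 in their deviations, and 0 of 4 knockouts correlated best with its own number. The deposited knockout columns carry other numbers than the titles. By column number, knockout 1 would go with control 2 (correlation 0.35) and knockout 2 with control 3 (0.17), in each case its highest. The other knockouts match no control that way, and a pairing by column number was not tested. The block used the title numbers and called Eif6, Eif4ebp1 and Eif3d.

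Some members changed sign, with none called, and the cause was not tested. Most were near 0 with all libraries, but Eif2ak4 was at -0.25 (SE 0.25) and Eif4ebp3 at -0.13 (SE 0.29). With the length trend removed the log2 fold change was 0.02 for Eif2b4, 0.02 for Eif3l, 0.03 for Eif4ebp2 and 0.0049 for Eif5a2. With length and GC trends removed it was 0.01 for Eif3l, 0.02 for Eif4g2 and 0.19 for Eif5a2. With limma-voom it was 0.02 for Eif2ak4, 0.09 for Eif4g2, 0.23 for Eif4ebp2 and 0.22 for Eif5a2. Without control 1 and knockout 3 it was -0.02 for Eif2ak1, 0.0019 for Eif3l and 0.07 for Eif4ebp2. Eif5a2 stood at 0.01 with RLE factors and DESeq2, 0.0013 with upper-quartile factors and 0.03 with the replicate block. When 1 library was left out, ranges were -0.09 to 0.02 for Eif2b4, -0.0042 to 0.12 for Eif2ak1, -0.04 to 0.15 for Eif2ak3, -0.21 to 0.06 for Eif3k, -0.06 to 0.01 for Eif3l, -0.16 to 0.07 for Eif4g2, -0.17 to 0.18 for Eif4ebp2, -0.34 to 0.11 for Eif4ebp3, -0.06 to 0.10 for Eif4enif1 and -0.19 to 0.18 for Eif5a2. A prior count of 0.5 moved no ratio beyond the spread. All 52 members had 800 or more counts, so a member threshold of 800 left the set unchanged and could not move a count. At these depths the lowest member, Eif5a2, rests on 109 to 250 counts per library.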
